A study of Mus musculus with 20 samples.

Results

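Dendritic cells that mature switch on the chemokine receptor CCR7, leave the tissue and carry antigen to T cells, and with CCR7 they switch on a set of genes for cell shape, adhesion, signalling and survival. The values of 31 such genes are described here in conventional dendritic cells of type 1 (cDC1s) of the mouse, which bear the receptor XCR1 and are specialised in cross-presentation. The genes were taken by name from what is known of mature CCR7+ dendritic cells, leaving out cytokines, chemokines and checkpoint ligands. All 31 were found by their gene identifier in each of the 3 count tables, among 56221 identifiers over the tables, and all 31 passed the filter on low counts in each table. By role, 8 act in the cytoskeleton and adhesion, 5 are receptors or surface proteins, 6 act in signalling, 6 in survival and protease inhibition, 4 in vesicles and lipid binding, and 2 have other roles.

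RNA was sequenced from 20 libraries of sorted cDC1s in 8 groups. XCR1+CD8a+ cDC1s came from WT C57BL/6 mice on day 15 of TLI/ATS (total lymphoid irradiation given with serum against thymocytes) and from untreated WT C57BL/6 mice, 2 libraries each. EpoR+ and EpoR- cDC1s, 2 libraries each, came from EpoR-tdTomato reporter mice that had all received TLI/ATS, again at day 15. CCR7+XCR1+SIRPa- cDC1s came from peripheral lymph node (called migratory in the labels) and spleen, each from Epor-Xcr1-Cre cKO mice, in which Cre driven by Xcr1 deletes the erythropoietin receptor gene, and from Eporflox/flox controls, 3 libraries per group and with no treatment named. Controls are named only as Eporflox/flox, so the loss of Epor cannot be told apart from the presence of Cre. Ages were not given, and nothing in the labels says that libraries of a group came from separate animals, so p-values measure the spread between these libraries, which may be technical.

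Depth lay between 26.6 and 77.6 M counts per library (M, counts times 1e-06), and values are given as CPM (share of the counts of a library, in units of 1e-06), with library sizes adjusted by TMM within each table. The 17 cDC1 marker genes listed for the check summed to between 5529 and 24595 CPM, and none of them was at 0 throughout a group. Epor had 236 and 127 counts after TLI/ATS and 0 in both untreated libraries, and 525 and 657 counts in EpoR+ against 4 and 11 in EpoR- libraries. It had 0, 0 and 0 counts in lymph node cKO against 24, 28 and 4 in lymph node control libraries, and 0, 2 and 0 in spleen cKO against 1, 0 and 6 in spleen control libraries. The spread between the libraries of a group differed among members. The median over members of the highest library over the lowest, on the log2 scale, was 0.25 after TLI/ATS, 0.074 in untreated, 0.39 in EpoR+ and 0.30 in EpoR- cDC1s. It was 0.12 in lymph node cKO, 0.17 in lymph node control, 0.10 in spleen cKO and 0.11 in spleen control libraries, and single members reached 1.43 (Gadd45b) in EpoR+, 1.48 (Cd83) in EpoR- and 1.99 (Basp1) in lymph node control libraries. Since the RNA is from bulk sorts, fewer cells of a type and less RNA per cell cannot be told apart.

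Several members lie side by side in the genome (GRCm38). Tmem123, Birc2 and Birc3 follow each other on chromosome 9 with 23.9 and 11.6 kb between neighbours, Adcy6 and Cacnb3 lie 20.8 kb apart on chromosome 15, and Serpinb6b and Serpinb9 lie 24.2 kb apart on chromosome 13. Icam1 lies on chromosome 9 as well, 930 kb from Epor. Stat4 shares 26.7% of its exon bases with Gm28177 on the same strand, which makes its counts uncertain. Another 7 members share fewer exon bases with a neighbour, the largest share being 14.1% for Bcl2l14 with 4933406J09Rik on the opposite strand, and Zmynd15 shares 12.5% with Cxcl16 on the opposite strand. The tables of EpoR fractions and of spleen and lymph node were counted without strand, so reads of such opposite pairs cannot be told apart there.

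Promoter windows from RefSeq (GRCm38.p6, 250 bases before to 50 after a start) matched 24 of the 31 members with 30 windows. The 120 bases before the start are shown for Fscn1 and Synpo2, which had the largest differences upwards between lymph node and spleen controls, for Bcl2l14, which had the largest called difference downwards after Marcks, and for Birc2, which shares a motif with Fscn1. Capitals mark matches to the motifs TGACGTCA, the cyclic AMP response element, and TATAAA, the TATA box.
Fscn1 (chr5:142960235-142960354, plus strand): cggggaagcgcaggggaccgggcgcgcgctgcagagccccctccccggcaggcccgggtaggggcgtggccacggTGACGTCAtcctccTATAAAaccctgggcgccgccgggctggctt
Synpo2 (chr3:123236150-123236269, minus strand): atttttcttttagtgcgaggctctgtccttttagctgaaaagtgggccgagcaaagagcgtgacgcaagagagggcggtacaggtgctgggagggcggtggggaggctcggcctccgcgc
Bcl2l14 (chr6:134396209-134396328, plus strand): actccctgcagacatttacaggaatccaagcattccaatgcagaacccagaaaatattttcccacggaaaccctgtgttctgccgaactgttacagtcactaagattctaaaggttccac
Birc2 (chr9:7837058-7837177, minus strand): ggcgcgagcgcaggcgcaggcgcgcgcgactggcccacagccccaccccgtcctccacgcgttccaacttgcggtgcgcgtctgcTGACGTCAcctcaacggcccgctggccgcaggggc
Searched on both strands of the whole windows, TGACGTCA was found in 2 of the 30 member windows (Fscn1 and Birc2) and in 1.79% of 32851 windows of all genes. TATAAA was found in 4 member windows (Fscn1, Synpo2, Icam1 and Gadd45b) and in 13.6% of all windows. In Fscn1 it begins 31 bases and in Gadd45b 46 bases before the start. In Icam1 it lies after the start, at base 14. In Synpo2 the match is on the opposite strand, 233 bases before the start and outside the stretch shown. TGANTCA, the AP-1 motif, was found in 1 member window (Il15ra) and in 7.81% of all windows, and the degenerate NF-kB consensus in 1 (Basp1) and in 8.46%. None of these motifs overlaps another, and a match describes the letters of the window and not a bound site.

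The levels of the members were set beside the label of the set. Of the 31 members, 27 had every one of the 12 libraries labelled CCR7+ above every library of the other tables. The share was 8.81% over the 13210 genes tested in each table. The members were picked as genes of mature CCR7+ dendritic cells, with earlier results of these data known. Such a count was thus likely in advance and is no independent check of the label. The tables were counted and scaled separately and the kits differed, so these levels are set side by side and not tested. Zmynd15 stood between 587 and 1897 CPM in the CCR7+ libraries, against 22.7 to 53.2 CPM in the TLI/ATS and untreated and 4.99 to 9.58 CPM in the EpoR+ and EpoR- libraries. The 4 others were Marcks, Basp1, Cd83 and Stat4, whose ranges overlapped between tables. Cd83, for example, stood between 1479.6 and 3515 CPM in the CCR7+ libraries and reached 1483 CPM in a TLI/ATS library. Ccr7 itself stood between 3800.4 and 5703 CPM in the CCR7+ libraries, between 314 and 643 CPM in the TLI/ATS and untreated and between 74.9 and 132 CPM in the EpoR+ and EpoR- libraries.

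**Figure D1:**
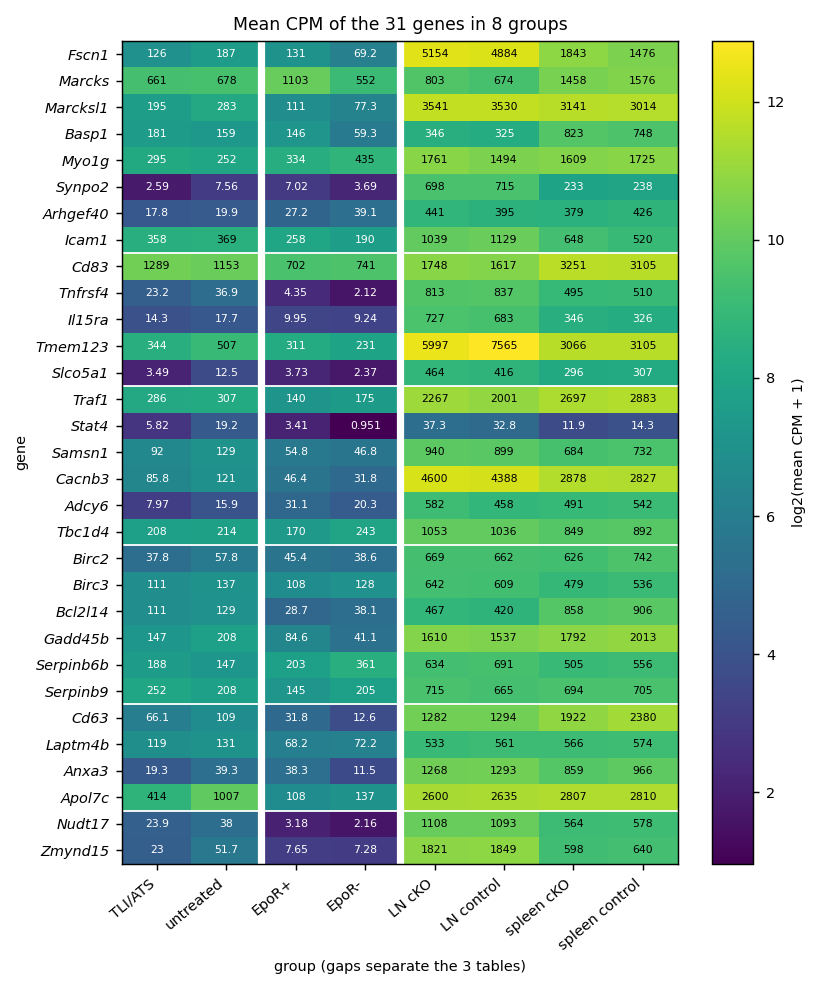
Mean CPM of each of the 31 genes (rows, in order of role) in each of the 8 groups (columns), coloured by log2(mean CPM + 1) with the mean printed in the cell. White gaps separate the 3 tables, which were scaled apart, and white lines separate the roles. The 4 columns of CCR7+ cDC1s on the right are brighter than the others in most rows, and Stat4 is the dimmest row in them.

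Levels between genes were compared per kilobase of exon. Among members in lymph node cKO libraries, Marcksl1 stood highest at 2206 CPM per kb, followed by Tmem123 (porimin, a cell surface protein) at 1929 and Fscn1 at 1711 CPM per kb. Lymph node controls had the same 3 genes on top, with 2199 CPM per kb for Marcksl1, 2433 for Tmem123 and 1622 for Fscn1. In spleen, Marcksl1 led with 1957 CPM per kb in cKO and 1878 in control libraries, and Apol7c, an apolipoprotein L family member, followed with 1363 and 1364 CPM per kb. Stat4, the transcription factor of interleukin-12 signalling, was lowest among members in all 4 groups, between 3.07 CPM per kb in spleen cKO and 9.64 CPM per kb in lymph node cKO.

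Lymph node and spleen cDC1s were compared in each genotype, which asks how the programme differs between migratory cells and CCR7+ cells of the spleen. The series text names CCR7 in the gate of the spleen cells and gives migratory XCR1+SIRPa- cells for lymph node. The sample labels carry CCR7+ in lymph node too. Tissue and gate thus cannot be told apart. In cKO mice, 18 members were higher and 5 lower in lymph node (edgeR's quasi-likelihood test, Benjamini-Hochberg adjusted p under 0.05), 74.2% of the members, against 29.4% of all 17362 genes tested, or 14.1% higher and 15.3% lower. In controls 17 members were higher and 9 lower, 83.9% of the members, against 41.3% of all genes, or 21% higher and 20.3% lower. The median log2 fold change of the members was 0.31 in cKO mice and 0.21 in controls, against 0.0029 and -0.01 over all genes. Across genotypes, 16 members were called higher in lymph node in both and had no overlap between the libraries of the tissues, against 11.2% of all genes, 5 were called lower in both, against 12.7% of all genes, and 1, Adcy6, was called in opposite directions. Called in cKO mice alone was 1, in controls alone 4 and in neither 4. For these counts and the opposite directions, the share of all genes was not worked out. All genes were also called more often in controls than in cKO mice, as given above. No difference between the genotypes passed the threshold for any member. Under library totals without TMM scaling, the median of all genes moved to 0.25 in cKO mice and 0.28 in controls. On that scale 22 members were higher and 3 lower in cKO mice, and 18 were higher and 5 lower in controls. All genes then split into 3996 higher and 1752 lower in cKO mice, against 2454 and 2653 with TMM, and into 5273 and 2408 in controls, against 3651 and 3518.

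**Figure D2:**
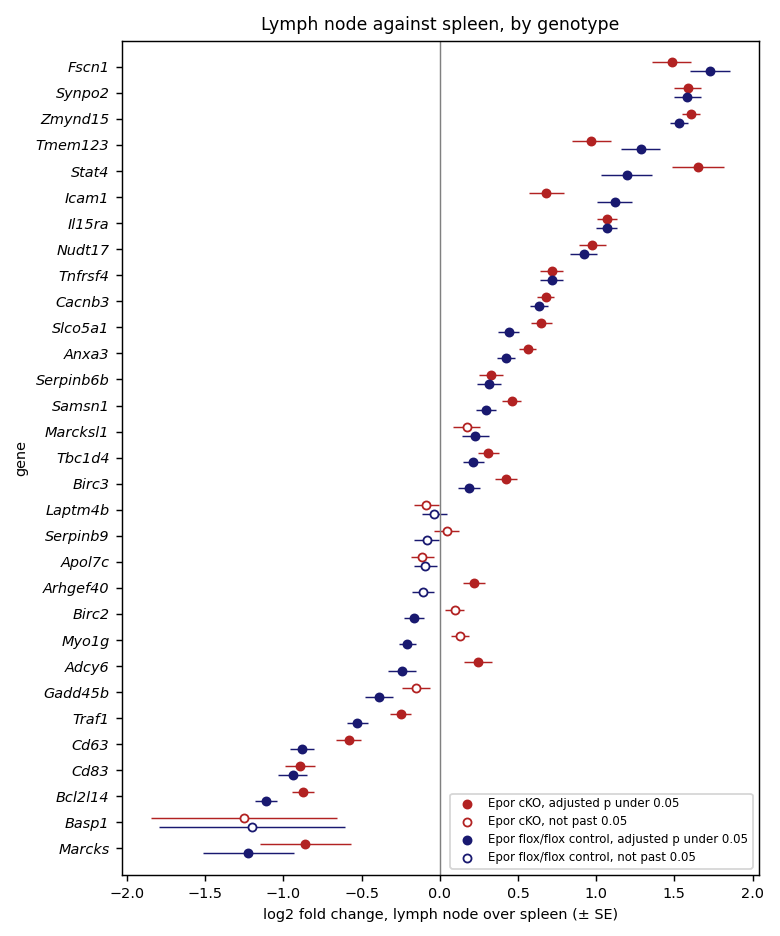
Log2 fold change of each member, lymph node over spleen, with its SE, in Epor cKO mice (red) and Epor flox/flox controls (dark), in order of the control value, filled where the adjusted p was under 0.05. Fscn1, Synpo2 and Zmynd15 lie farthest right in controls at 1.73, 1.58 and 1.53, Marcks and Bcl2l14 lie at -1.22 and -1.11, and the long bars of Basp1 cross the values of its neighbours.

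Among cytoskeletal genes, fascin (Fscn1), which bundles the actin of dendrites, had 5732, 4071 and 5657 CPM in lymph node cKO, against 1900.0, 1923 and 1705 CPM in spleen cKO libraries. In controls it had 4211, 5180.3 and 5261 CPM in lymph node, against 1639, 1295 and 1493 CPM in spleen. Every lymph node library was above every spleen library. The log2 fold change was 1.48 ± 0.13 SE in cKO mice and 1.73 ± 0.13 SE in controls (edgeR's quasi-likelihood test, Benjamini-Hochberg adjusted p = 3.6e-07 and 5.1e-08). Synpo2, an actin-binding protein known from muscle, had 703, 715 and 678 CPM in lymph node and 242, 232 and 225 CPM in spleen cKO libraries. In controls it had 757, 659.5 and 727 CPM in lymph node and 228, 268 and 219 CPM in spleen. The groups stood apart by about the same amount in both genotypes, with a log2 fold change of 1.58 ± 0.085 SE in cKO mice and 1.58 ± 0.085 SE in controls (edgeR's quasi-likelihood test, adjusted p = 2.46e-09 and 1.79e-09). Icam1, the adhesion molecule that binds LFA-1 on T cells, was also higher in lymph node, by a log2 fold change of 0.68 ± 0.11 SE in cKO mice and 1.12 ± 0.11 SE in controls.

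Other genes of this role were lower or uneven. Marcks, a membrane-bound regulator of actin, had 901, 625 and 884 CPM in lymph node cKO, against 1511, 1349 and 1513 CPM in spleen cKO libraries, and 451, 1068 and 505 CPM in lymph node controls, against 1460.2, 1340.3 and 1927 CPM in spleen controls. It was called lower in lymph node in both genotypes (log2 fold change -0.86 ± 0.29 SE in cKO mice and -1.22 ± 0.29 SE in controls, edgeR's quasi-likelihood test, adjusted p = 0.0458 and 0.00619), and the cKO call was lost on leaving out any 1 of the 6 cKO libraries, without the filter on low counts and with library totals without TMM. Basp1, a membrane protein of the same kind, had 408, 203 and 425 CPM in lymph node cKO, against 879, 728 and 862 CPM in spleen cKO libraries, and 162, 642 and 171 CPM in lymph node controls, against 617, 470.0 and 1156 CPM in spleen controls. Basp1 missed the threshold in both genotypes, with the widest spread of the members. It was called lower in lymph node in cKO mice with the 2 groups fitted alone. In controls it was called lower without replicate 2 of the lymph node controls. The same libraries were high for Marcks and Basp1, namely replicate 2 of lymph node controls and replicate 3 of spleen controls, and replicate 2 of lymph node cKO was low for both. Marcksl1, also of this kind, was not called in cKO mice and was called higher in controls by 0.23 ± 0.086 SE, a call lost under DESeq2, with the 2 groups fitted alone and on leaving out any of 4 of the 6 control libraries. Myo1g, a class I myosin of blood cells, was not called in cKO mice at 0.13 ± 0.057 SE and was called lower in controls at -0.21 ± 0.057 SE, a call lost without the filter on low counts, with the 2 groups fitted alone and without replicate 2 of the spleen controls, and a direction that turned to 0.085 with library totals without TMM. Arhgef40 was called in cKO mice alone at 0.22 ± 0.069 SE, a call lost without the filter on low counts and on leaving out replicate 1 of spleen cKO or any lymph node cKO library.

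**Figure D3:**
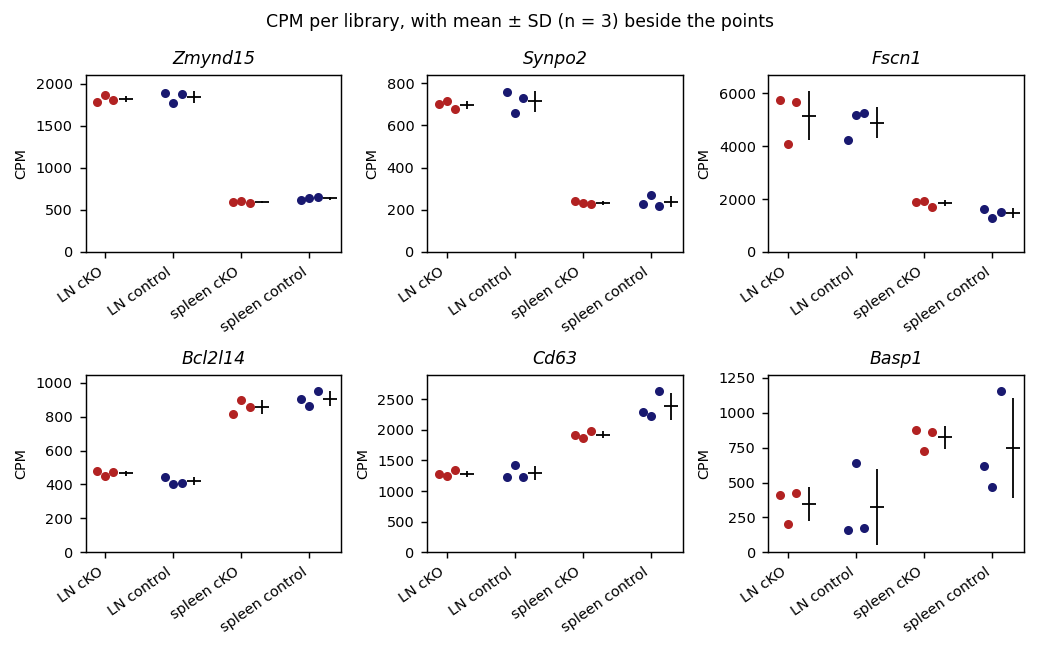
CPM in each of the 3 libraries of lymph node cKO, lymph node control, spleen cKO and spleen control cDC1s, with the mean ± SD beside the points (red, cKO; dark, control), on axes that start at 0. Zmynd15, Synpo2 and Fscn1 are higher and Bcl2l14 and Cd63 lower in every lymph node library than in any spleen library, whereas the libraries of Basp1 spread from 203 to 425 CPM in lymph node cKO and from 162 to 642 CPM in lymph node controls.

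All 5 receptors and surface proteins were called in both genotypes, 4 higher and 1 lower in lymph node. Of all genes, 29.4% were called in cKO mice and 41.3% in controls. Il15ra, the receptor chain that presents interleukin-15 to other cells, had 719, 719 and 742 CPM in lymph node cKO, against 333, 343 and 363 CPM in spleen cKO libraries. In controls it had 718, 650.5 and 679 CPM in lymph node, against 320.2, 332 and 325 CPM in spleen. Its libraries were tight and the log2 fold change was 1.07 ± 0.066 SE in cKO mice and 1.07 ± 0.066 SE in controls (edgeR's quasi-likelihood test, adjusted p = 1.15e-08 and 9.15e-09). Tmem123 had 6462, 4891 and 6638 CPM in lymph node cKO, against 3135, 3277 and 2786 CPM in spleen cKO libraries, and 8743, 7812 and 6139 CPM in lymph node controls, against 2952, 3068 and 3296 CPM in spleen controls. It was higher in lymph node by a log2 fold change of 0.97 ± 0.12 SE in cKO mice and 1.28 ± 0.12 SE in controls. Tnfrsf4, the costimulatory receptor OX40, was higher by 0.72 ± 0.072 SE and 0.72 ± 0.072 SE, and Slco5a1, a member of the organic anion transporter family, by 0.65 ± 0.068 SE and 0.44 ± 0.068 SE in cKO mice and controls. Cd83, a surface marker of mature dendritic cells, went the other way with 1781, 1530.3 and 1934 CPM in lymph node cKO, against 3288, 3515 and 2949.7 CPM in spleen cKO libraries, and 1705, 1667 and 1479.6 CPM in lymph node controls, against 2908, 3048 and 3359 CPM in spleen controls. Every lymph node library of Cd83 was below every spleen library (log2 fold change -0.89 ± 0.093 SE in cKO mice and -0.94 ± 0.094 SE in controls, edgeR's quasi-likelihood test, adjusted p = 3.2e-06 and 1.18e-06).

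All 6 signalling genes were called in each genotype, against 29.4% of all genes in cKO mice and 41.3% in controls. Cacnb3, a subunit of voltage-gated calcium channels, had 4531, 4514 and 4754 CPM in lymph node cKO, against 2797, 2952 and 2885 CPM in spleen cKO libraries. In controls it had 4490.2, 4338 and 4334 CPM in lymph node, against 2722, 2942 and 2817 CPM in spleen. The groups did not overlap, and the log2 fold change was 0.68 ± 0.056 SE in cKO mice and 0.63 ± 0.056 SE in controls (edgeR's quasi-likelihood test, adjusted p = 2.76e-07 and 3.39e-07). Stat4 had 37.6, 36.8 and 37.5 CPM in lymph node cKO, against 13.9, 9.38 and 12.3 CPM in spleen cKO libraries, and 32.8, 30.8 and 34.7 CPM in lymph node controls, against 12.9, 16.8 and 13.4 CPM in spleen controls. It was higher in lymph node by 1.65 ± 0.17 SE in cKO mice and 1.19 ± 0.17 SE in controls, at a low level and with the shared exon bases described above. Samsn1, an adaptor of lymphocyte signalling, and Tbc1d4, a Rab GTPase-activating protein, were higher by 0.46 and 0.31 in cKO mice and by 0.30 and 0.21 in controls. The control call of Tbc1d4 was lost without replicate 1 of the lymph node controls. Traf1, an adaptor of TNF receptors, was lower in both (-0.25 ± 0.069 SE in cKO mice and -0.53 ± 0.069 SE in controls), though with library totals without TMM the cKO value was near 0 and not called, and the cKO call was also lost on leaving out replicate 1 or 2 of spleen cKO or replicate 1 of lymph node cKO. Adcy6, an adenylyl cyclase, had 586, 632 and 527 CPM in lymph node cKO, against 481, 471 and 520.0 CPM in spleen cKO libraries, and 417, 441 and 516 CPM in lymph node controls, against 531, 549.8 and 544 CPM in spleen controls. It was called higher in cKO mice at 0.25 ± 0.088 SE and lower in controls at -0.24 ± 0.088 SE. Both calls were lost under DESeq2 and on leaving out any of several libraries of their own genotype, the control value turned to 0.052 with library totals without TMM, and the difference between the genotypes missed the threshold (edgeR's quasi-likelihood test, adjusted p = 0.119).

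Of the 6 survival genes and protease inhibitors, 2 were higher and 1 lower in lymph node in cKO mice, and 2 were higher and 3 lower in controls. These were 50% and 83.3% of the role, against 29.4% and 41.3% of all genes. Bcl2l14, a member of the BCL2 family, had 479, 450.5 and 473 CPM in lymph node cKO, against 818, 897 and 858 CPM in spleen cKO libraries. In controls it had 446, 406 and 407 CPM in lymph node, against 907, 860.2 and 951 CPM in spleen. No lymph node library reached a spleen library (log2 fold change -0.88 ± 0.070 SE in cKO mice and -1.11 ± 0.070 SE in controls, edgeR's quasi-likelihood test, adjusted p = 1.81e-07 and 1.07e-08). Gadd45b, a stress-response gene that also tempers JNK signalling, was called lower in controls alone at -0.39 ± 0.090 SE, a call lost with library totals without TMM at -0.095. The neighbouring genes Birc2 and Birc3, the ubiquitin ligases cIAP1 and cIAP2 of TNF receptor and NF-kB signalling, had control values close to the threshold. Birc3 was called higher in both, by 0.42 ± 0.071 SE in cKO mice and 0.19 ± 0.071 SE in controls, and the control call was lost under DESeq2, with RLE size factors, without the filter on low counts, with the 2 groups fitted alone and without replicate 3 of spleen or replicate 1 or 3 of lymph node controls. Birc2 was called lower in controls alone at -0.17 ± 0.062 SE, a call lost without the filter, with the 2 groups fitted alone and on leaving out any control library, and the value turned to 0.13 with library totals without TMM. Serpinb6b, an intracellular protease inhibitor, was higher by 0.33 in cKO mice and 0.31 in controls, and its neighbour Serpinb9, the inhibitor of granzyme B, was called in neither, with values of 0.044 in cKO mice and -0.085 in controls.

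Of the 4 vesicle and lipid genes, 1 was higher and 1 lower in lymph node in each genotype. This was 50% of the role, near the 41.3% of all genes called in controls and above the 29.4% in cKO mice. Cd63, a tetraspanin of late endosomes and exosomes, had 1271, 1241 and 1335 CPM in lymph node cKO, against 1913, 1873 and 1981 CPM in spleen cKO libraries, and 1228, 1421 and 1233 CPM in lymph node controls, against 2289, 2218 and 2633 CPM in spleen controls. It was lower in lymph node by a log2 fold change of -0.58 ± 0.077 SE in cKO mice and -0.88 ± 0.078 SE in controls. Anxa3, a calcium-dependent phospholipid-binding protein, was higher by 0.56 ± 0.057 SE in cKO mice and 0.42 ± 0.057 SE in controls. Laptm4b, a lysosomal membrane protein, and Apol7c were called in neither genotype, with values between -0.11 and -0.034. Both genes of other roles were higher. Zmynd15, a zinc finger protein known from male germ cells, had 1789, 1862 and 1810.3 CPM in lymph node cKO, against 597, 609 and 587 CPM in spleen cKO libraries. In controls it had 1897, 1768 and 1882 CPM in lymph node, against 622, 645 and 653 CPM in spleen. This was the lowest adjusted p among members in each genotype (log2 fold change 1.61 ± 0.060 SE in cKO mice and 1.53 ± 0.060 SE in controls, edgeR's quasi-likelihood test, adjusted p = 6.04e-11 and 6.53e-11). Zmynd15 shares exon bases with Cxcl16, as described above, and these libraries were counted without strand. Nudt17, a nudix hydrolase, was higher by 0.98 ± 0.085 SE in cKO mice and 0.92 ± 0.085 SE in controls.

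Ccr7 had 4530.4, 4504 and 4819.5 CPM in lymph node cKO, against 5250.0, 5703 and 4769 CPM in spleen cKO libraries, and 4573, 3800.4 and 4187 CPM in lymph node controls, against 4606, 4978 and 4409 CPM in spleen controls. It was not called in either genotype (-0.18 ± 0.080 SE in cKO mice and -0.16 ± 0.080 SE in controls), and the labels name it in the sort. Of 30 other CCR7-linked genes, 11 were higher and 9 lower in lymph node in cKO mice, and 12 were higher and 11 lower in controls. The chemokine Ccl5 and the class I-like gene H2-M2 had log2 fold changes of 1.62 and 1.31 in cKO mice, and Cxcl9 and Il12b, a chemokine and a cytokine subunit, of -2.63 and -1.15. In controls the values were 1.64 for Ccl5, 1.50 for H2-M2, -3.30 for Cxcl9 and -1.27 for Il12b. The 23 genes of NF-kB and TNF receptor signalling divided into 8 higher and 7 lower in cKO mice and 10 higher and 11 lower in controls. Ikbkb, a kinase of NF-kB activation, and Tnip1, an inhibitor of it, were higher in controls by 0.92 and 1.13, and the NF-kB subunit Rel and the regulator Nfkbiz were lower at -1.89 and -1.58. Among 35 relatives of the members, 7 were higher and 9 lower in cKO mice, and 12 were higher and 10 lower in controls. Anxa2, a relative of Anxa3, was higher by 1.39 in cKO mice and 1.42 in controls, and Gadd45g, a relative of Gadd45b, was lower at -2.35 and -2.26.

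Markers of other cells moved with tissue, and their part in these results was not tested. The 16 T cell markers summed to 248 to 292 CPM in lymph node cKO, against 97.1 to 109 CPM in spleen cKO libraries, and to 352 to 367 CPM in lymph node controls, against 88.2 to 104 CPM in spleen controls, and 15 of 16 were called higher in lymph node controls. The 9 plasma cell markers summed to 293 to 344 CPM in lymph node cKO, against 4969 to 5379 CPM in spleen cKO libraries, and to 308 to 331 CPM in lymph node controls, against 2393 to 2585 CPM in spleen controls. The 17 cDC1 markers summed to 5998 to 6158 CPM in lymph node cKO, against 9394 to 9758 CPM in spleen cKO libraries. In controls they summed to 5529 to 5906 CPM in lymph node, against 8852 to 9632 CPM in spleen, with 1 called higher and 13 lower.

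Deletion of Epor was examined in each tissue. No member was called in spleen or in lymph node (edgeR's quasi-likelihood test, Benjamini-Hochberg adjusted p under 0.05), against 0.611% of 17362 genes in spleen and 0.455% in lymph node. At an unadjusted p under 0.05 there were 7 of the 31 members in spleen, against 13% of all genes, and 7 of 31 in lymph node, against 7.51%. DESeq2 called 3 of 31 in spleen (Cd63, Birc2 and Anxa3), against 3.59% of all genes, and 1 of 31 in lymph node (Myo1g), against 1.18%. Without the filter on low counts edgeR called 3 of 31 in spleen (Fscn1, Icam1 and Cd63), against 1.19% of all genes. It called 2 of 31 in lymph node (Adcy6 and Tmem123), against 0.464%. Fold changes of the members ran from -0.31 to 0.32 in spleen and from -0.33 to 0.34 in lymph node on the log2 scale. Their median was -0.072 in spleen, where 24 of 31 had a value below 0, and 0.067 in lymph node, where 21 of 31 had a value above 0, with a median of 0 over all genes in both tissues.

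Nearest to the threshold in spleen was Cd63, with 1913, 1873 and 1981 CPM in cKO, against 2289, 2218 and 2633 CPM in control libraries (log2 fold change -0.31 ± 0.077 SE, edgeR's quasi-likelihood test, adjusted p = 0.0931). Birc2 had 614, 617 and 648 CPM in spleen cKO, against 709, 756 and 762 CPM in control libraries (-0.24 ± 0.062 SE, edgeR's quasi-likelihood test, adjusted p = 0.0974). Anxa3 had 856, 860.3 and 861 CPM in spleen cKO, against 949, 1005 and 943 CPM in control libraries (-0.17 ± 0.057 SE, edgeR's quasi-likelihood test, adjusted p = 0.224). For all 3 genes every cKO library was below every control library. The same held for members farther from the threshold, such as Traf1 and Samsn1. For Fscn1 and Icam1 every cKO library was above every control library. The share of all genes with such a separation was not worked out. In lymph node, Myo1g had 1748, 1739.8 and 1795 CPM in cKO, against 1545, 1438 and 1500.5 CPM in control libraries (0.24 ± 0.057 SE, edgeR's quasi-likelihood test, adjusted p = 0.132). Adcy6 had 586, 632 and 527 CPM, against 417, 441 and 516 CPM in control libraries (0.34 ± 0.088 SE, edgeR's quasi-likelihood test, adjusted p = 0.166), and leaving out replicate 3 of the lymph node controls brought it past the threshold. Tmem123 had 6462, 4891 and 6638 CPM, against 8743, 7812 and 6139 CPM in control libraries (-0.33 ± 0.12 SE, edgeR's quasi-likelihood test, adjusted p = 0.498), and its libraries overlapped.

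**Figure D4:**
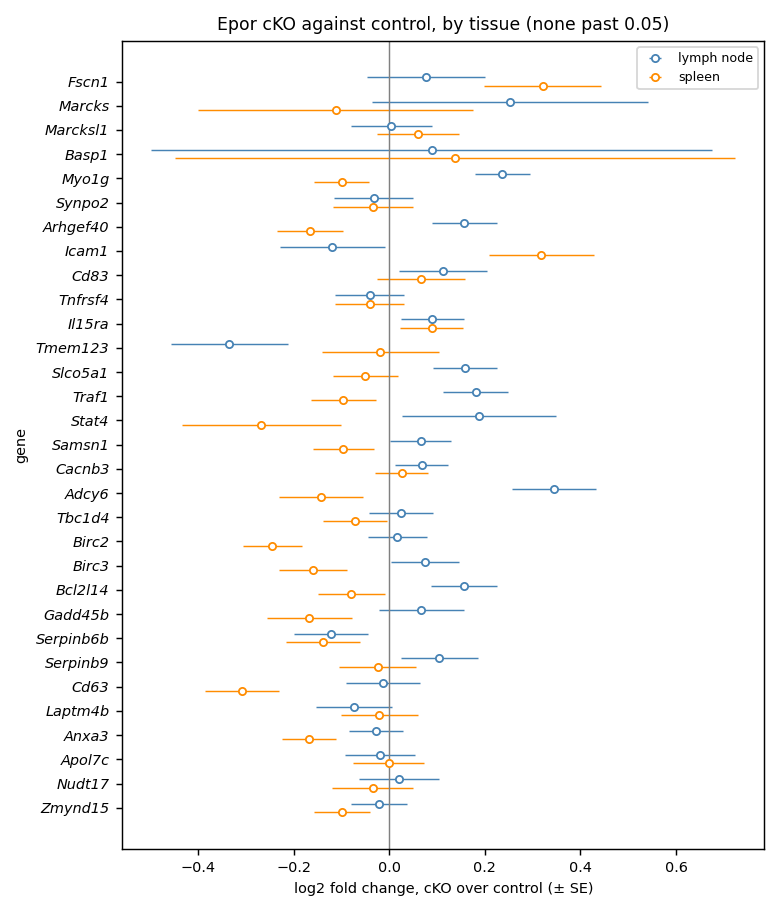
Log2 fold change of each member, Epor cKO over Epor flox/flox control, with its SE, in lymph node (blue) and spleen (orange), with open points since no member passed 0.05. Values lie between -0.33 and 0.34 in lymph node and between -0.31 and 0.32 in spleen, and the bars of Basp1 span more than this range.

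The effect of the deletion was compared between tissues within one model. No member passed the threshold for lymph node minus spleen, against 0.317% of all genes. Of the 31 members, 10 had an unadjusted p under 0.05, against 12.5% of all genes. DESeq2 called 2 of 31 (Myo1g and Adcy6), against 3.11% of all genes. Without the filter on low counts edgeR called 2 of 31 (Icam1 and Adcy6), against 0.994%. The lowest p-values belonged to Myo1g with a difference of 0.34 ± 0.081 SE, Adcy6 with 0.49 ± 0.12 SE and Arhgef40 with 0.32 ± 0.10 SE (edgeR's quasi-likelihood test, adjusted p = 0.102, 0.119 and 0.187). Ccr7 was not called, with 4530.4, 4504 and 4819.5 CPM in lymph node cKO, against 4573, 3800.4 and 4187 CPM in lymph node control libraries, and 5250.0, 5703 and 4769 CPM in spleen cKO, against 4606, 4978 and 4409 CPM in spleen control libraries.

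In the lists around the members, calls appeared in lymph node. Of 30 other CCR7-linked genes 3 were higher in cKO, among them the checkpoint ligand Cd274 at 0.48 ± 0.078 SE and Cxcl9 at 0.67 ± 0.13 SE (edgeR's quasi-likelihood test, adjusted p = 0.0071 and 0.0311). Of 23 NF-kB and TNF receptor signalling genes, Rel at 0.48 ± 0.087 SE and the kinase Map3k14 at 0.53 ± 0.097 SE were higher (edgeR's quasi-likelihood test, adjusted p = 0.0165 and 0.0185). None of the 3 lists, the 35 relatives of the members included, had a call in spleen by edgeR, where 2, 2 and 8 of their genes had an unadjusted p under 0.05. Plasma cell markers summed to 4969 to 5379 CPM in spleen cKO, against 2393 to 2585 CPM in spleen controls, with 3 of 9 called higher, and T cell markers to 248 to 292 CPM in lymph node cKO, against 352 to 367 CPM in lymph node controls, with 0 of 16 called and 2 at an unadjusted p under 0.05. Their part in the members' values was not tested.

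TLI/ATS was compared with no treatment to ask what the conditioning does to XCR1+CD8a+ cDC1s. No member was higher and 4 were lower after TLI/ATS (edgeR's quasi-likelihood test, Benjamini-Hochberg adjusted p under 0.05), 12.9% of the members, against 2.7% of all 17236 genes tested, or 2.2% lower and 0.499% higher. The median log2 fold change of the members was -0.50, against 0.024 over all genes, and 26 of 31 had a value below 0. The count depends on the libraries and the tool: DESeq2 called 8, all lower, against 6.88% of all genes, and the test without the filter on low counts called 2, against 1.47%. Leaving out 1 library gave between 0 and 21.

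**Figure D5:**
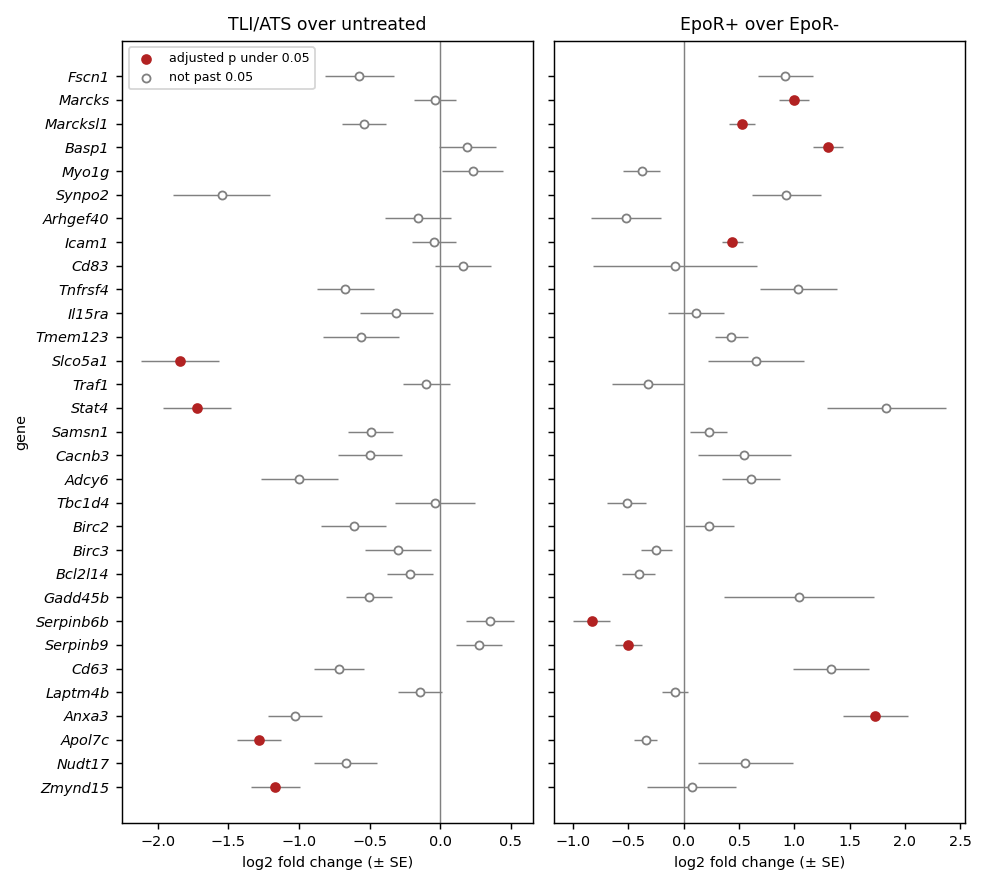
Log2 fold change of each member with its SE, TLI/ATS over untreated on the left and EpoR+ over EpoR- on the right, filled red where the adjusted p was under 0.05. On the left 26 of 31 points lie below 0, with Slco5a1 at -1.84 and Stat4 at -1.72 farthest. On the right 20 of 31 lie above 0, from Serpinb6b at -0.83 to Stat4 at 1.83, which was not called.

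Apol7c had 392 and 435 CPM after TLI/ATS, against 993 and 1021 CPM in untreated cDC1s (log2 fold change -1.28 ± 0.16 SE, edgeR's quasi-likelihood test, adjusted p = 0.0255). Stat4 had 6.58 and 5.06 CPM, against 18.2 and 20.2 CPM in untreated cDC1s (-1.72 ± 0.24 SE, edgeR's quasi-likelihood test, adjusted p = 0.0368). Zmynd15 had 22.7 and 23.3 CPM, against 53.2 and 50.1 CPM in untreated cDC1s (-1.17 ± 0.17 SE, edgeR's quasi-likelihood test, adjusted p = 0.0398). For these genes both TLI/ATS libraries were below both untreated libraries by more than the libraries of a group differed. The groups did not overlap for uncalled members such as Fscn1 and Birc3 either. With 2 libraries per group, this separation adds no support to the calls. Slco5a1 had 3.29 and 3.69 CPM, against 14.6 and 10.4 CPM in untreated cDC1s, a low level with the largest fold among members (-1.84 ± 0.28 SE, edgeR's quasi-likelihood test, adjusted p = 0.0438). Leaving out replicate 1 of the untreated libraries ended all 4 calls, and leaving out replicate 2 ended all but that of Slco5a1. Leaving out a TLI/ATS library, after which the spread came from the untreated pair alone, gave 21 calls (2 higher and 19 lower) without replicate 1 and 19 (4 higher and 15 lower) without replicate 2, while the share of all genes called became 27.6% and 26.1%.

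By role, the members past the threshold were 1 surface protein, 1 signalling gene, 1 vesicle and lipid gene and 1 of other roles. None of the 8 cytoskeletal genes passed, and neither did any of the 6 survival genes, at an unadjusted p under 0.05 for 2 in each role, against 15.7% of all genes. Synpo2 had 2.55 and 2.63 CPM after TLI/ATS, against 5.62 and 9.5 CPM in untreated cDC1s (-1.55 ± 0.34 SE, edgeR's quasi-likelihood test, adjusted p = 0.109). It was called lower by DESeq2 and with a replicate block. Among members whose libraries overlapped between the groups, Cd83 had 1483 and 1095 CPM, against 1142 and 1164 CPM, Marcks 648 and 674 CPM, against 671 and 685 CPM, and Icam1 375 and 341 CPM, against 357 and 381 CPM in untreated cDC1s. Ccr7 had 395 and 314 CPM after TLI/ATS, against 643 and 610.0 CPM in untreated cDC1s, and missed the threshold (-0.82 ± 0.18 SE, edgeR's quasi-likelihood test, adjusted p = 0.109).

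Of the 30 other CCR7-linked genes, 2 were lower, Ccl5 at -1.27 and the costimulatory receptor Tnfrsf9 at -1.60, and none was higher, and 10 had an unadjusted p under 0.05. Of the 23 signalling genes 1 was lower, the kinase Ikbke at -5.36, and of the 35 relatives 1 was higher (Anxa1, 1.13) and 2 were lower (Il2rg at -1.53 and Xiap at -1.56). Markers of other cells differed too, and their part was not tested. The 16 T cell markers summed to 27.9 to 36.8 CPM after TLI/ATS, against 857 to 863 CPM in untreated cDC1s, and all 16 were called lower. The 13 B cell markers summed to 86.6 to 102 CPM, against 767 to 768 CPM, with 11 called lower, and the 8 plasmacytoid dendritic cell markers to 121 to 137 CPM, against 818 to 829 CPM, with 7 called lower. The 20 macrophage markers summed to 1287 to 1860 CPM after TLI/ATS, against 216 to 237 CPM in untreated cDC1s, with 12 of the 19 tested called higher.

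EpoR+ cDC1s were compared with EpoR- cDC1s of TLI/ATS-treated mice to define the cells that carry the receptor. Of the members 5 were higher and 2 lower in EpoR+ cDC1s (edgeR's quasi-likelihood test, Benjamini-Hochberg adjusted p under 0.05), 22.6% of the members, against 16.7% of all 15627 genes tested, or 11.9% higher and 4.75% lower. In this fit the share of members called was thus near that of all genes. The median log2 fold change of the members was 0.43, against 0.016 over all genes, and 20 of 31 had a value above 0. DESeq2 called 11 of the 31 members, 8 higher and 3 lower, against 20% of all genes. With a replicate block more members were called, as given at the end, against 34.2% of all genes. How near the shares lie thus depends on the fit.

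Of the called genes, 4 belonged to the cytoskeleton and adhesion, and all 4 were higher. Of the 8 genes of this role, 6 had a value above 0. The 2 below 0, Myo1g at -0.38 and Arhgef40 at -0.52, were not called here and were called lower with a replicate block. Basp1 had 152 and 141 CPM in EpoR+ cDC1s, against 53.8 and 64.9 CPM in EpoR- cDC1s (log2 fold change 1.30 ± 0.14 SE, edgeR's quasi-likelihood test, adjusted p = 0.00287). Marcks had 1211 and 994 CPM, against 587 and 518 CPM in EpoR- cDC1s (1.00 ± 0.14 SE, edgeR's quasi-likelihood test, adjusted p = 0.00725). Both EpoR+ libraries lay above both EpoR- libraries for these 2 genes, whose libraries overlapped between TLI/ATS and untreated cDC1s. Icam1 had 252 and 263 CPM in EpoR+, against 192 and 188 CPM in EpoR- cDC1s (0.44 ± 0.10 SE, edgeR's quasi-likelihood test, adjusted p = 0.0347). Marcksl1 had 111 and 112 CPM, against 72 and 82.6 CPM in EpoR- cDC1s (0.52 ± 0.12 SE, edgeR's quasi-likelihood test, adjusted p = 0.0371).

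Anxa3 was the other gene that was higher, with 28.8 and 47.8 CPM in EpoR+, against 12.9 and 10.1 CPM in EpoR- cDC1s (1.73 ± 0.29 SE, edgeR's quasi-likelihood test, adjusted p = 0.0156). The neighbouring protease inhibitors were lower. Serpinb6b had 231 and 175 CPM in EpoR+, against 389 and 333 CPM in EpoR- cDC1s (-0.83 ± 0.17 SE, edgeR's quasi-likelihood test, adjusted p = 0.0275). Serpinb9 had 157 and 133 CPM, against 205 and 205 CPM in EpoR- cDC1s (-0.50 ± 0.12 SE, edgeR's quasi-likelihood test, adjusted p = 0.047). The fractions did not overlap for any of the 7 genes called. They did not overlap for uncalled members such as Samsn1 and Nudt17 either. With 2 libraries per fraction, this separation adds no support to the calls. Leaving out either EpoR+ library left 4 calls and 8.92% or 8.87% of all genes called, without Icam1, Marcksl1 and Serpinb9 in the absence of replicate 1, and without Icam1, Marcksl1, Serpinb9 and Serpinb6b, but with Fscn1, in the absence of replicate 2. Icam1 and Serpinb9 were also lost on leaving out either EpoR- library and with RLE size factors, and Marcksl1 without replicate 1 of EpoR-.

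None of the 5 surface proteins and none of the 6 signalling genes passed, with 2 of each at an unadjusted p under 0.05, against 29.9% of all genes. DESeq2 and edgeR without the filter on low counts both called Stat4 higher and Tbc1d4 lower, and edgeR without the filter called Tmem123 higher as well. Cd83 had 406 and 998 CPM in EpoR+, against 391 and 1091 CPM in EpoR- cDC1s, so that the libraries of a fraction differed more than the fractions did. Several members stood at a few CPM in both fractions: Stat4 had 4.51 and 2.3 CPM in EpoR+, against 1.16 and 0.744 CPM in EpoR- cDC1s. Its log2 fold change of 1.83 ± 0.54 SE missed the threshold in edgeR's quasi-likelihood test (adjusted p = 0.0799) and passed it in DESeq2 and without the filter. Ccr7 had 117 and 132 CPM in EpoR+, against 74.9 and 108 CPM in EpoR- cDC1s (0.45 ± 0.20 SE, edgeR's quasi-likelihood test, adjusted p = 0.199).

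Of 29 other CCR7-linked genes tested, 3 were higher, among them Socs2 and Ccl5 at 1.83 and 1.27, and none was lower. Of 23 signalling genes 3 were higher, among them the TNF receptor Tnfrsf1b at 1.71 and Ltbr at 0.70, and 1 was lower, the kinase Chuk at -0.53. Of 35 relatives of the members 11 were higher and 4 lower, among them Serpinb6a, a relative of Serpinb6b, at 5.27 and Anxa1, a relative of Anxa3, at -1.06. Macrophage markers moved with the receptor: all 20 were called higher, and they summed to 26486 to 26960 CPM in EpoR+, against 343 to 365 CPM in EpoR- cDC1s. The 17 cDC1 markers summed to 11206 to 12802 CPM in EpoR+, against 22770 to 24595 CPM in EpoR- cDC1s, with 15 called lower. Markers of cDC2s and monocytes summed to 1889 to 1965 CPM in EpoR+, against 120 to 165 CPM in EpoR- cDC1s. The part of these cells in the members' values was not tested.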

How the data were processed

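The deposited values are raw counts of reads per gene, in 3 tables and with no normalization by the authors. For the table of TLI/ATS and untreated cDC1s, the submitters' processing notes name HISAT2, SAMtools, StringTie and featureCounts, with GRCm38 as the build. Per the file headers, the EpoR+ and EpoR- libraries were counted with featureCounts 2.0.3 and the lymph node and spleen libraries with featureCounts 2.0.8. Neither run used strand, and both counted the mates of a pair one by one. HISAT2 2.1.0 stands in the processing notes of the lymph node and spleen libraries.

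Each table was tested apart in R 4.3.3 with edgeR 4.0.16: genes kept by filterByExpr (minimum count 10, minimum total 15), TMM scaling, and the quasi-likelihood test with robust dispersion and Benjamini-Hochberg adjustment over all genes tested at 0.05. The lymph node and spleen table was fitted with all its libraries and a mean per group. CPM use the TMM-scaled library size. Named were all members with Ccr7 and Epor, with values per library for up to 6 members of lowest adjusted p (3 of lowest p where fewer than 3 passed) and those needed to describe a role, and the 2 genes of lowest adjusted p per direction from each further list. Members, lists and tests were chosen with earlier results of these data known. Alternatives were DESeq2 1.42.0, RLE size factors, no filter, a replicate block, leaving out the genes of other cells, fitting 2 groups alone, leaving out each library and, added after seeing the data, library totals without TMM.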

Additional observations from a re-analysis of the deposited data

How the results depend on the processing

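The count of members called between lymph node and spleen stayed within 1.5 times its value under each setting run, between 19 and 25 of 31 in cKO mice and between 21 and 26 in controls, and leaving out 1 library gave 19 to 22 in cKO mice and 21 to 24 in controls. With library totals without TMM, 3 called values in controls turned their sign, Myo1g to 0.085, Adcy6 to 0.052 and Birc2 to 0.13. After TLI/ATS, 4 members were called, 8 by DESeq2, 2 without the filter on low counts and 0 to 21 on leaving out 1 library. Between EpoR+ and EpoR- cDC1s 7 were called, 11 by DESeq2 and 4 to 7 on leaving out 1 library. The cKO comparisons had 0 members called, with 3 in spleen by DESeq2 and 3 without the filter, 1 in lymph node by DESeq2 and 2 without the filter, and 2 for the difference between tissues by DESeq2 and 2 without the filter. Leaving out 1 library gave 0 in spleen, 0 to 1 in lymph node and 0 to 1 for the difference, the 1 being Adcy6 without replicate 3 of the lymph node controls. The cause of these changes was not tested.

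The replicate numbers of the labels are shared between groups without a statement that they pair animals or days. Deviations of libraries with the same number correlated at 0.42 between EpoR+ and EpoR- (2 pairs), at -0.025 between TLI/ATS and untreated, and between -0.057 and 0.023 in the lymph node and spleen table. With a replicate block the count rose to 21 in EpoR+ against EpoR- (12 higher and 9 lower), with 34.2% of all genes called, against 16.7% without it, and 2 surface proteins and 5 signalling genes were among the calls (Tnfrsf4, Tmem123, Stat4, Adcy6 and Cacnb3 higher, Tbc1d4 and Traf1 lower). The count stayed within 1.5 times in the other comparisons, at 6 after TLI/ATS, 21 and 22 between the tissues in cKO mice and controls, and 0 for the deletion. Pairs of 2 or 3 libraries and levels of a few CPM, as for Stat4 and Slco5a1, limit what these fits can show.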
